A study of Mus musculus with 15 samples.

Results

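The subunits of respiratory complexes II, III, IV and V that the nuclear genome encodes were followed in the gastrocnemius, a calf muscle, of mice with and without Sirt3 on a calorie-restricted (CR) or a control diet. Members were the genes of a list of 40 subunit names for which a probe set of the array carries that symbol and no other, with 1 probe set per gene, the one with the highest mean over all 15 arrays. Of the 40 names 38 were found, which is 4 of 4 for complex II, 9 of 9 for complex III, 11 of 12 for complex IV and 14 of 15 for complex V. All 38 passed the filter on low values, among 12056 genes tested of 19938 with a probe set. Cox7c was found only on probe sets that carry several symbols and is not analysed here. Atp5f1 is not a symbol of the array annotation, which lists the same gene as Atp5pb, and that probe set was not counted as a member.

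The groups compared were Sirt3 knockout mice on CR (4 mice), Sirt3 knockout mice on the control diet (4), wildtype mice on CR (4) and wildtype mice on the control diet (3). All were C57BL/6 males of 12 months, and each array held the RNA of 1 mouse. The sources used here do not say whether the Sirt3 deletion is present in all tissues, how it was made, or how long and how strongly calories were restricted. Values are log2 intensities, and a difference of 1 is a doubling. Because a probe set's brightness depends on its own sequence, levels were compared between arrays and not between genes.

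The respiratory chain sits in the inner mitochondrial membrane. Complex II (succinate dehydrogenase) passes electrons from succinate, an intermediate of the citric acid cycle, to ubiquinone. Complex III passes them on to cytochrome c and complex IV (cytochrome c oxidase) to oxygen, both moving protons across the membrane, and complex V (ATP synthase) uses the return of those protons to make ATP. Complexes III, IV and V are built from subunits of both the nuclear and the mitochondrial genome, and complex II from nuclear ones alone. Sirt3 is a deacetylase of mitochondrial proteins, and subunits of these complexes are among the proteins it is known to act on, a step that RNA levels do not report.

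The labels and the tissue were checked first. The Sirt3 probe set lay between 4.94 and 6.05 in knockout CR muscle and between 5.02 and 6.19 in knockout control muscle, against 6.38 to 6.53 in wildtype CR muscle and 6.49 to 6.68 in wildtype control muscle, with no overlap between genotypes. The mean of 9 skeletal muscle markers was 11.95 to 12.12 on all 15 arrays. Some arrays also carried transcripts of another tissue. The mean of 19 germ cell markers on knockout control replicate 1 was 3.22 log2 units over that of the median array, and on wildtype control replicate 3 it was 3.70 over. Wildtype control replicate 2 had pancreas markers 7.03 over the median array, and wildtype CR replicate 4 had liver markers 2.67 over it. These 4 arrays exceeded 2 log2 units, while liver markers stood 1.63 over the median array on knockout control replicate 2 and 1.55 over it on wildtype control replicate 1, which were kept. The testis isoforms Cox6b2 and Cox8c, which belong to that germ cell list, were at 7.12 and 7.07 on knockout control replicate 1. They were at 7.40 and 7.31 on wildtype control replicate 3. Counts and medians over the 38 genes are also given without these 4 arrays where they moved. In whole muscle, a change in the share of a fibre or cell type and a change of RNA per cell cannot be told apart.

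No subunit gene of the 38 passed an adjusted p of 0.05 (limma, Benjamini-Hochberg over 12056 genes) in any of 7 comparisons, under the settings reported here or under any alternative. The comparisons were CR over control diet in each genotype and averaged over both, knockout over wildtype on each diet and averaged over both, and the difference between the CR effects of the genotypes. They share arrays and are not independent of each other. Among all genes tested, the percentage called was 0.0664 for CR in knockout muscle, 0.124 for CR in wildtype muscle, 1.07 for CR averaged over genotypes, 0.0166 for knockout over wildtype on CR and 0 for the other 3. Sirt3 itself, the gene knocked out, also missed the threshold in the genotype comparisons. Its knockout over wildtype difference was -0.99 on CR (adjusted p = 0.605), -0.93 on the control diet (adjusted p = 0.599) and -0.96 averaged (adjusted p = 0.318). The 95% interval of the difference stayed within 0.5 log2 units of 0 for all 38 genes in 5 of the 7 comparisons, for 37 in knockout over wildtype on the control diet and for 36 in the difference between CR effects. Over all genes tested that percentage was 85.9 for CR in knockout, 81.9 for CR in wildtype and 91.3 for CR averaged over genotypes. It was 89.1 for knockout over wildtype on CR, 85.5 on the control diet and 94 averaged over diets, and 69.1 for the difference between CR effects.

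**Figure D1:**
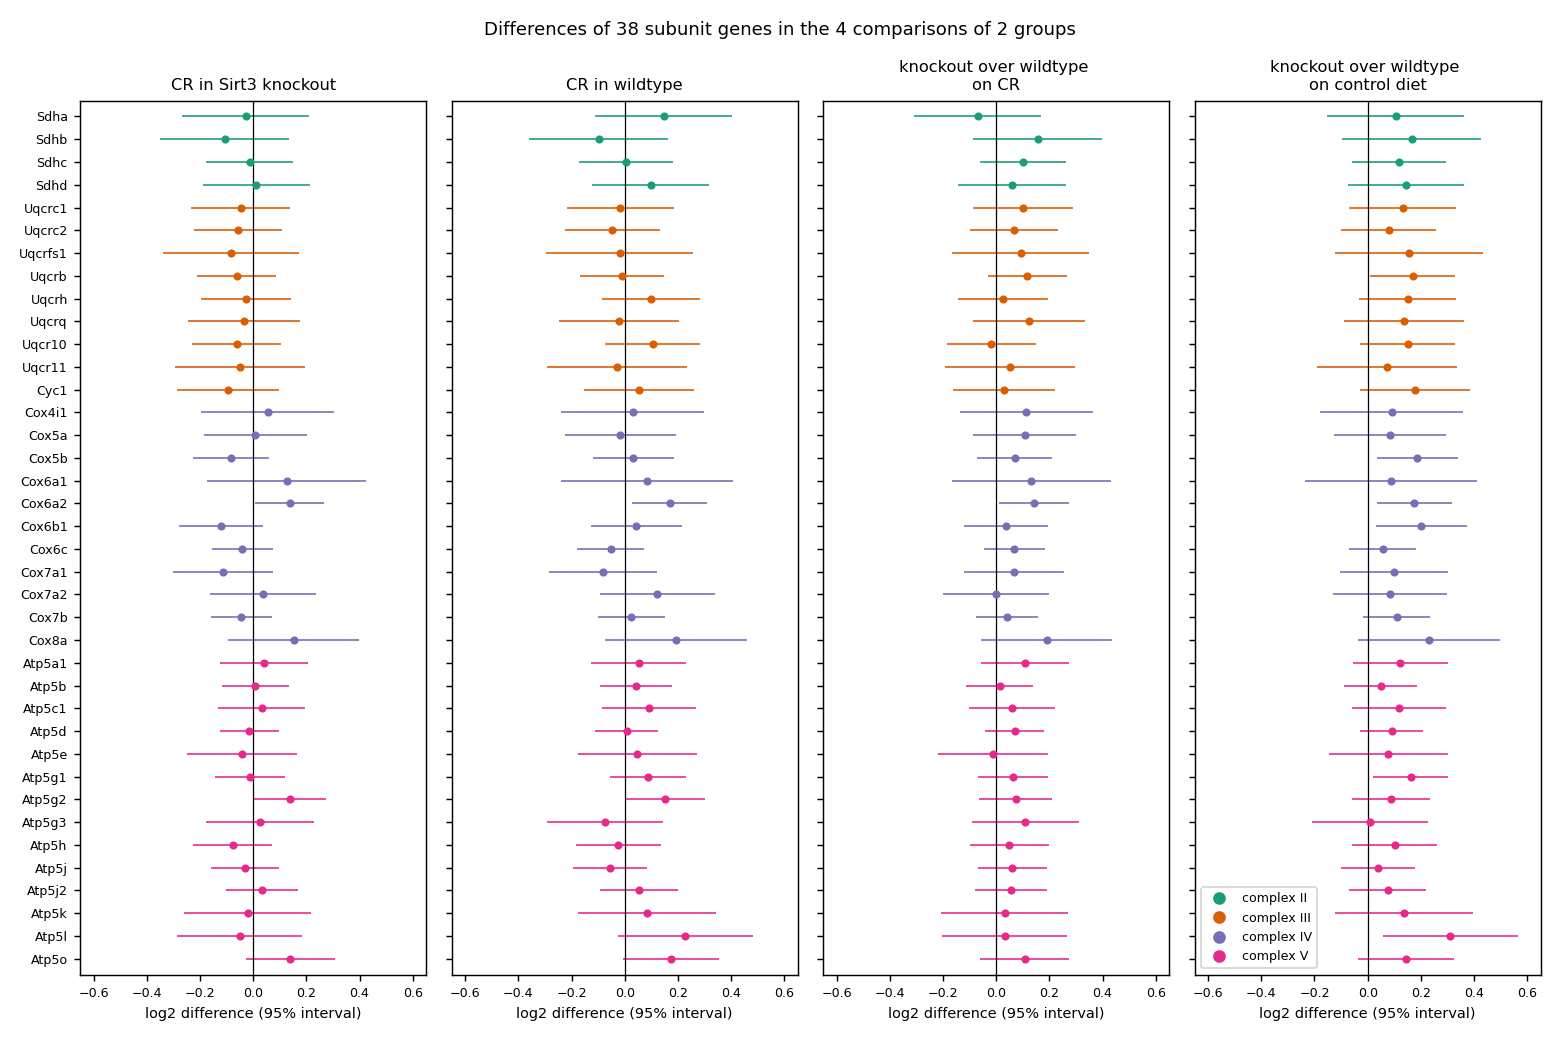
Log2 difference of each of the 38 subunit genes (points) with its 95% interval (lines) in the 4 comparisons of 2 groups, ordered and coloured by complex. In knockout over wildtype on the control diet all 38 points lie right of 0, from 0.01 to 0.31, while most intervals include 0.

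Knockout muscle on the control diet had slightly higher levels than wildtype muscle across all 4 complexes. The log2 difference was above 0 for 38 of 38 genes, where 57.6 percent of all genes tested were above 0, and its median was 0.12, against 0.02 over all genes. By complex the median difference was 0.13 for complex II, 0.15 for complex III, 0.10 for complex IV and 0.10 for complex V. At an unadjusted p under 0.05, 6 of the 38 genes were higher and 0 lower, against 5.08 and 1.94 percent of all genes. They were Cox6a2, Cox5b and Cox6b1 of complex IV, Atp5l and Atp5g1 of complex V and Uqcrb of complex III. Every knockout array lay above every wildtype array for 6 genes (Cox6a2, Cox6b1, Cox7b, Cox8a, Atp5g1 and Atp5d), a pattern shown by 3.71 percent of all genes, and for 0 genes in the other direction (1.29 percent).

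The size of this difference depended on 1 array. Knockout control replicate 3 lay above the gene's own 15-array median for all 38 genes, where 46.1 percent of all genes did, and it was the highest of the 15 arrays for 31 of the 38. Without it the median difference on the control diet was 0.05, with 31 of 38 genes above 0 and 0 at an unadjusted p under 0.05. Without knockout control replicate 1, the array of that group with germ cell transcripts, the median was 0.18, with 38 of 38 above 0 and 17 at an unadjusted p under 0.05. The share of all genes at that level was not computed for this or any other fit that leaves out arrays. Without both germ cell arrays the median was 0.16, with 38 of 38 above 0, and without all 4 arrays, which leaves wildtype control replicate 1 as the only mouse of its group, it was 0.12, with 36 above 0 and 1 at an unadjusted p under 0.05. On knockout control replicate 3 the germ cell, pancreas and liver marker means lay -0.12, -0.16 and -0.03 log2 units from the median array. Its slow fibre marker mean lay -0.18 and its fast fibre mean 0.02 from it. Marker means of the fast fibre, the tendon and fibroblast, and the pancreas lists did not overlap between knockout and wildtype on the control diet. That of 11 fast fibre genes was 12.40 to 12.50 in knockout and 12.35 to 12.39 in wildtype muscle. That of 8 tendon and fibroblast genes was 7.88 to 8.10 in knockout and 8.26 to 8.44 in wildtype muscle. That of 12 pancreas genes was 5.00 to 5.08 in knockout and 5.72 to 12.20 in wildtype muscle. The mean of 9 slow fibre genes overlapped but varied widely. It was 9.02 to 9.94 in knockout control, 9.19 to 10.28 in wildtype control and 8.63 to 10.54 in wildtype CR muscle. Their part in the result was not tested.

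**Figure D2:**
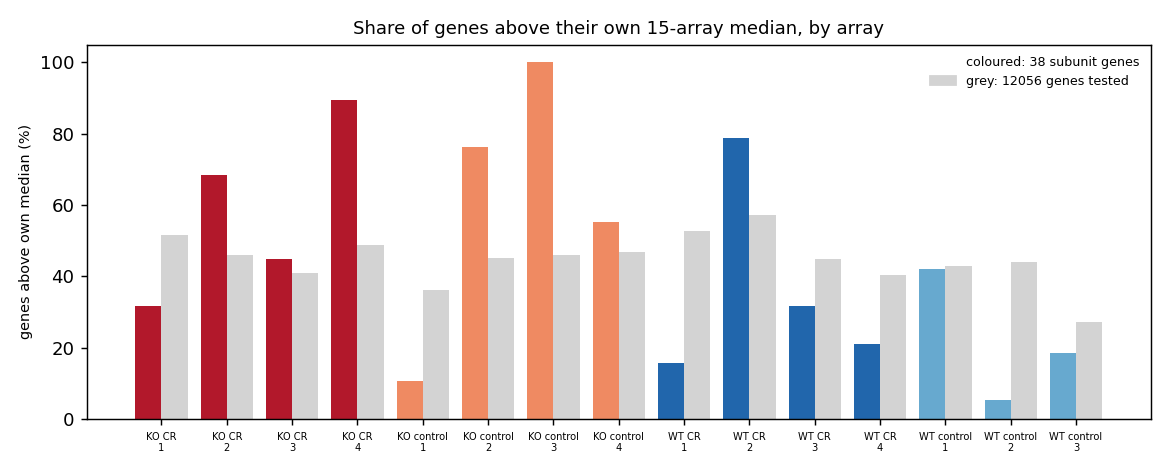
Percent of the 38 subunit genes (coloured bars) and of all 12056 genes tested (grey bars) that lay above their own 15-array median, for each array, with groups in the order knockout CR, knockout control, wildtype CR and wildtype control. Subunit genes reached 100% on knockout control replicate 3 and were at 10.5% on knockout control replicate 1 and 5.26% on wildtype control replicate 2.

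The mean deviation of the 38 genes from their 15-array means described each array. It was -0.02, 0.05, 0.00 and 0.12 in knockout CR muscle and -0.11, 0.05, 0.24 and 0.01 in knockout control muscle. It was -0.07, 0.05, -0.04 and -0.06 in wildtype CR muscle and -0.02, -0.10 and -0.11 in wildtype control muscle. The 4 knockout control mice thus spanned the lowest and the highest values of the study, and all 3 wildtype control mice lay below 0. The group means were 0.04 ± 0.06 for knockout CR, 0.05 ± 0.14 for knockout control, -0.03 ± 0.06 for wildtype CR and -0.07 ± 0.05 for wildtype control (SD, n = 4, 4, 4 and 3). On wildtype control replicate 3 the median deviation of all genes tested was itself -0.10.

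**Figure D3:**
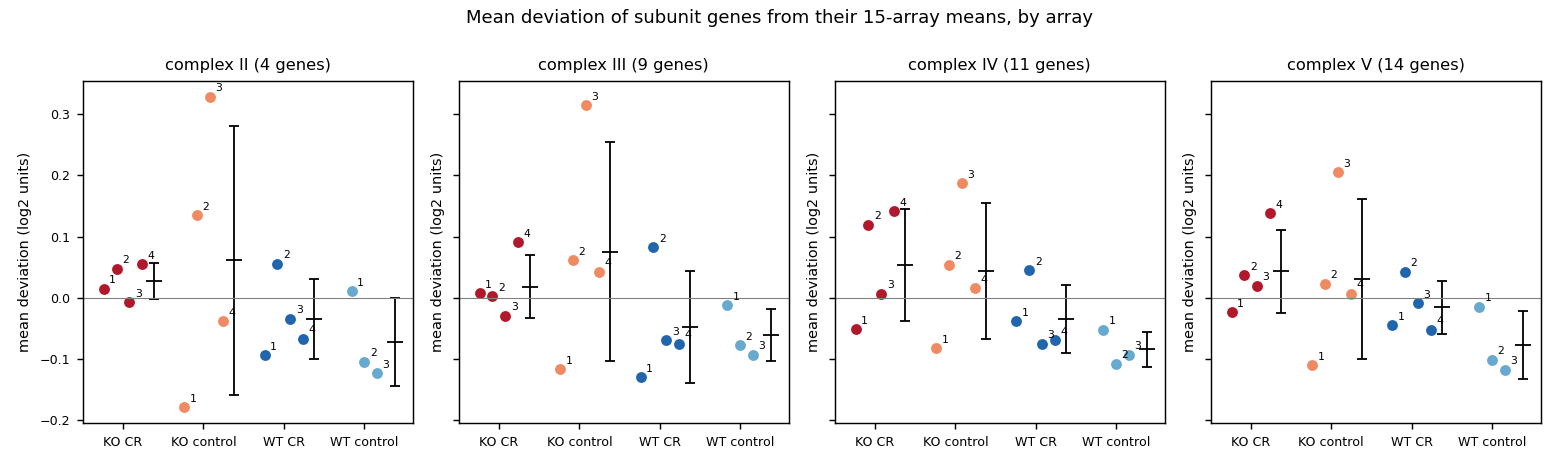
Mean log2 deviation of the subunit genes of each complex from their 15-array means, 1 point per array numbered by replicate, with the group mean and SD as bars. Knockout control replicate 3 is the highest array in every complex, at 0.33, 0.31, 0.19 and 0.20 in complexes II, III, IV and V.

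On CR, knockout muscle also lay above wildtype muscle for most subunit genes. The difference was above 0 for 34 of 38 genes, against 46.7 percent of all genes, with a median of 0.07 against -0.01 over all genes. The medians by complex were 0.08, 0.07, 0.07 and 0.06 for complexes II, III, IV and V. Only Cox6a2 had an unadjusted p under 0.05, where 2.58 percent of all genes were higher and 3.34 percent lower at that level. Cox6a2 and Atp5d were higher without overlap between the groups, as were 1.84 percent of all genes, and 0 genes were lower without overlap (2.76 percent). Leaving out any 1 array kept the median between 0.05 and 0.09 and the count above 0 between 31 and 37. Averaged over diets the difference was above 0 for all 38 genes (53.2 percent of all genes), with a median of 0.09 against 0.01, and 7 genes were higher and 0 lower at an unadjusted p under 0.05 (4.33 and 2.85 percent of all genes). At that level 3 genes were higher without the 4 arrays, and 13 without the 2 germ cell arrays.

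CR itself moved the subunit genes little and not in 1 direction. In knockout muscle 14 of 38 differences between CR and control diet were above 0 (53 percent of all genes), with a median of -0.03 against 0.01. All 9 complex III genes lay below 0, from -0.10 to -0.03. This too turned on the control mice. Without knockout control replicate 3 the median was 0.05 with 28 genes above 0 (54.8 percent of all genes). Without knockout control replicate 1 it was -0.07 with 5 above 0 (50.8 percent). In wildtype muscle 25 of 38 differences were above 0 (62.3 percent of all genes), with a median of 0.04, the same as over all genes. Without the 4 arrays that carried another tissue's transcripts that median was -0.03, against 0.02 over all genes, with 17 above 0 (57.4 percent of all genes). At an unadjusted p under 0.05 the same pair, Cox6a2 and Atp5g2, was higher and none lower in each genotype, against 6.79 percent higher and 5.17 percent lower of all genes in knockout muscle and 9.72 and 3.4 percent in wildtype muscle. In wildtype muscle Cox6a2, Atp5g2, Atp5o and Sdha were higher on CR without overlap (9.55 percent of all genes) and 0 lower (2.95 percent), and in knockout muscle 0 of the 38 were higher (3.91 percent) and 0 lower (3.08 percent). Averaged over genotypes 19 of 38 differences were above 0 (59.5 percent of all genes), with a median of 0.00 against 0.03, and Cox6a2, Atp5g2 and Atp5o were higher at an unadjusted p under 0.05 (13.7 percent of all genes) and 0 lower (6.4 percent). Without the 4 arrays this count was 10 of 38, with a median of -0.05 and 0 genes at an unadjusted p under 0.05, and without knockout control replicate 3 it was 29 of 38, with a median of 0.04.

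The CR effect was not shown to differ between genotypes. The difference of the CR effects, knockout minus wildtype, was above 0 for 6 of 38 genes, against 43.1 percent of all genes, with a median of -0.04 against -0.03. None of the 38 had an unadjusted p under 0.05 in either direction, where 1.33 percent of all genes were higher and 4.39 percent lower. The smallest p belonged to Atp5l, at -0.28 (SE 0.16, adjusted p = 0.863). Without knockout control replicate 3 the median was 0.01 and 22 genes lay above 0. The count above 0 was 11 without the 4 arrays and 2 without the 2 germ cell arrays, with medians of -0.04 and -0.07.

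Cox6a2 had the smallest p of the 38 genes in 6 of the 7 comparisons. It encodes the heart and skeletal muscle isoform of subunit 6A of complex IV. Its log2 intensity was 12.23, 12.18, 12.23 and 12.26 in knockout CR muscle and 12.02, 12.12, 12.23 and 11.98 in knockout control muscle. It was 12.04, 12.12, 12.04 and 12.12 in wildtype CR muscle and 11.96, 11.94 and 11.84 in wildtype control muscle. All knockout arrays lay above all wildtype arrays on each diet, and all wildtype CR arrays above all wildtype control arrays, while knockout control replicate 3 reached into the knockout CR range. The difference for CR averaged over genotypes was 0.15 (SE 0.04, unadjusted p = 0.00405, adjusted p = 0.101), made up of 0.14 in knockout and 0.17 in wildtype muscle. The difference for knockout over wildtype averaged over diets was 0.16 (SE 0.04, unadjusted p = 0.00318, adjusted p = 0.536), made up of 0.14 on CR and 0.18 on the control diet. With quantile normalization of the deposited values the CR difference was 0.085 averaged over genotypes, 0.073 in knockout and 0.097 in wildtype muscle, and without the 4 arrays 0.11 averaged, with an adjusted p of 0.558. Over 26 alternatives the adjusted p ran from 0.064 to 0.558 for CR and from 0.263 to 0.927 for the genotype. In order of p it stood at rank 483 of 12056 genes for CR and at rank 70 for the genotype. Of 11 fast fibre genes 4 were higher with CR averaged over genotypes and passed the adjusted threshold (1.07 percent of all genes passed in either direction): Mylpf, a regulatory light chain of myosin, at 0.38 (SE 0.06, adjusted p = 0.0127), Actn3 at 0.19, Tnni2 at 0.18 and Pvalb at 0.15. Without the 4 arrays none of these 4 passed, and with quantile normalization Mylpf alone did. The list did not move as 1: the myosin heavy chains Myh2 and Myh1 stood at -0.30 (SE 0.13, adjusted p = 0.36) and -0.31 (SE 0.13, adjusted p = 0.378) in knockout muscle, and Myh2 at -0.26 (SE 0.09, adjusted p = 0.151) averaged. The part of the fast fibre genes in the Cox6a2 difference was not tested.

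Cox6a1, the isoform of subunit 6A found in most tissues, was the most variable of the complex IV genes, with an SD of 0.204 over 15 arrays. Its values were 7.40, 7.99, 7.45 and 7.88 in knockout CR muscle, 7.35, 7.75, 7.59 and 7.52 in knockout control muscle, 7.72, 7.67, 7.30 and 7.51 in wildtype CR muscle and 7.30, 7.53 and 7.57 in wildtype control muscle. Each group overlapped every other. Its differences were 0.13 for CR in knockout, 0.08 for CR in wildtype, 0.13 for knockout over wildtype on CR and 0.09 on the control diet, each with an SE of 0.14 or 0.15. The 95% interval of the first of these was -0.17 to 0.43.

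Of the other complex IV genes, Cox7a1 encodes the muscle isoform of subunit 7A and Cox7a2 the isoform of most tissues. Cox7a1 was 11.47, 11.70, 11.65 and 11.65 in knockout CR muscle, 11.62, 11.73, 11.90 and 11.66 in knockout control muscle, 11.43, 11.80, 11.53 and 11.44 in wildtype CR muscle and 11.66, 11.57 and 11.67 in wildtype control muscle. Its CR difference was -0.11 (SE 0.09) in knockout and -0.08 (SE 0.10) in wildtype muscle, with all groups overlapping. Cox7a2 was 9.23, 9.44, 9.25 and 9.55 in knockout CR muscle, 9.21, 9.19, 9.58 and 9.33 in knockout control muscle, 9.32, 9.46, 9.37 and 9.32 in wildtype CR muscle and 9.17, 9.23 and 9.34 in wildtype control muscle. Its CR difference was 0.04 (SE 0.09) in knockout and 0.12 (SE 0.10) in wildtype muscle. The signs for the muscle isoform and the common isoform were opposite in both genotypes, but the 95% interval included 0 for both genes in both genotypes. Cox6b1, which bridges the outer face of the complex, averaged 10.62 ± 0.05 in knockout control muscle and 10.42 ± 0.08 in wildtype control muscle (SD, n = 4 and 3), a difference of 0.20 (SE 0.08, adjusted p = 0.662). On CR it averaged 10.50 ± 0.15 in knockout and 10.46 ± 0.07 in wildtype muscle (SD, n = 4 each). Cox5b and the small membrane subunit Cox8a differed by 0.13 (SE 0.05) and 0.21 (SE 0.08) between knockout and wildtype averaged over diets. Both had an adjusted p of 0.645. Cox4i1 and Cox5a, the large nuclear-encoded subunits, differed by at most 0.11 in any comparison of 2 groups. Cox6c was the steadiest of the 11, with an SD of 0.0646.

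In complex V the smallest p belonged to Atp5g2 for CR in each genotype. For knockout over wildtype it belonged to Atp5l on the control diet and to Atp5a1 on CR. Atp5g1, Atp5g2 and Atp5g3 encode the same mature c subunit, of which the rotating ring is made, behind different import sequences. Atp5g2 was 11.67, 11.75, 11.82 and 11.79 in knockout CR muscle and 11.45, 11.71, 11.70 and 11.62 in knockout control muscle. It was 11.69, 11.74, 11.64 and 11.66 in wildtype CR muscle and 11.59, 11.51 and 11.50 in wildtype control muscle. In wildtype muscle all CR arrays lay above all control arrays, and in knockout muscle the groups overlapped. Its CR difference was 0.14 (SE 0.06, adjusted p = 0.416) in knockout, 0.15 (SE 0.07, adjusted p = 0.362) in wildtype and 0.15 (SE 0.05, adjusted p = 0.125) averaged over both. Its other 2 probe sets gave 0.14 and 0.12 in wildtype muscle. Without the 4 arrays the CR difference was 0.082 in knockout, 0.10 in wildtype and 0.093 averaged (adjusted p = 0.626).

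Atp5g1 was 12.48, 12.58, 12.55 and 12.57 in knockout CR muscle, 12.49, 12.49, 12.72 and 12.51 in knockout control muscle, 12.46, 12.57, 12.47 and 12.43 in wildtype CR muscle and 12.44, 12.35 and 12.39 in wildtype control muscle. Its CR difference was -0.01 (SE 0.06) in knockout and 0.09 (SE 0.07) in wildtype muscle, and its knockout over wildtype difference on the control diet 0.16 (SE 0.07, adjusted p = 0.666). Knockout control replicate 3 stood apart from the other knockout control mice, and all 4 of those mice lay above the wildtype control mice. Atp5g3 was 10.86, 10.97, 10.93 and 11.16 in knockout CR muscle, 10.81, 10.88, 11.27 and 10.87 in knockout control muscle, 10.89, 10.92, 10.85 and 10.83 in wildtype CR muscle and 11.04, 10.86 and 10.94 in wildtype control muscle. Its CR difference was 0.03 (SE 0.09) in knockout and -0.08 (SE 0.10) in wildtype muscle. It had the smallest of the 38 differences between knockout and wildtype on the control diet, at 0.01 (SE 0.10).

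The promoters of these 3 genes and of the Cox7a pair are shown because each set yields the same or closely related proteins from separate genes. The 250 bases before the annotated start were taken from RefSeq (GRCm38.p6), on the gene's own strand, and lie at chr11:96075632-96075881 for Atp5g1, chr15:102671048-102671297 for Atp5g2, chr2:73911327-73911576 for Atp5g3 (all minus strand), chr7:30183921-30184170 for Cox7a1 (plus strand) and chr9:79759854-79760103 for Cox7a2 (minus strand). Capitals mark exact matches to a motif of the search described next, which are overlapping NRF1 motifs on the 2 strands in Atp5g2, an ERR motif on the opposite strand in Atp5g3 and an SP1 motif in Cox7a2.
Atp5g1: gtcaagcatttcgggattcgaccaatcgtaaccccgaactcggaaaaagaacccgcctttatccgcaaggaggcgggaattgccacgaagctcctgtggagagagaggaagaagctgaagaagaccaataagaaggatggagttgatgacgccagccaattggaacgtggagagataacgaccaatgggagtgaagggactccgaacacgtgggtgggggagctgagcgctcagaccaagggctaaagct
Atp5g2: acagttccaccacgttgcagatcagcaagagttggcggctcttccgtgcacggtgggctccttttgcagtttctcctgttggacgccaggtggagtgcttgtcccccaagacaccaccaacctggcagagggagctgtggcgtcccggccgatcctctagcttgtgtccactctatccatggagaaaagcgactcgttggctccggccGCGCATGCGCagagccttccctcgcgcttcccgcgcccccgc
Atp5g3: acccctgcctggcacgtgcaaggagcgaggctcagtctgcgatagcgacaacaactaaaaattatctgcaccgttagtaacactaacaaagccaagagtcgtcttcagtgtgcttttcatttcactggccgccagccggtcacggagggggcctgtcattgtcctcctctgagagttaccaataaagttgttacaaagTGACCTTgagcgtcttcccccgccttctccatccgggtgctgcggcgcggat
Cox7a1: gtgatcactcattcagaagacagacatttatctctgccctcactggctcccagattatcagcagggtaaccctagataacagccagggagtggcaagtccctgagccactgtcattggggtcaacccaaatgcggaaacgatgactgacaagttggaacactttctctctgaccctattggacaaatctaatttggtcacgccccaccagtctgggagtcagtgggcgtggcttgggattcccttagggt
Cox7a2: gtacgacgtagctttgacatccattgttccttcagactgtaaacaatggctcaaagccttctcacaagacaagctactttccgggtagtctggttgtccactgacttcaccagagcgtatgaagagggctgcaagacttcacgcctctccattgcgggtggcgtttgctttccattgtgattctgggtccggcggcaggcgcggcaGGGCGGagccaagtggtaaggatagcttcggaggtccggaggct

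Exact matches to 6 motifs were searched on both strands in windows of 250 bases before to 50 bases after each start. NRF1 and ETS-family factors are known for binding the promoters of nuclear genes of the respiratory chain. The RefSeq table held 32 promoters for 29 of the 38 genes. The NRF1 motif, CGCANGCGC, was in 14 of these 32 promoters (43.8 percent), where 6.31 percent of 32851 mouse promoters held it. The ETS motif, CCGGAAG, was in 12 of the 32 (37.5 percent, against 8.86 percent of all). For the ERR motif, AAGGTCA, which nuclear receptors of the estrogen-related family bind, the count was 5 (15.6 percent, against 4.72 percent). The YY1 motif, AAGATGGC, was found in 2 (6.25 percent, against 2.75 percent). The SP1 motif, GGGCGG, was in 9 (28.1 percent, against 35.7 percent). TATAAA, the TATA motif, was in 1 promoter (3.12 percent, against 13.6 percent), that of Atp5l. By complex, NRF1 motifs were in 2 of 3 promoters of complex II, 3 of 5 of complex III, 1 of 8 of complex IV (Cox6a1) and 8 of 16 of complex V. Atp5g1 and Cox7a1 held none of the 6 in the whole window, and Atp5g3 held an NRF1 and Atp5g2 an SP1 motif in addition to those printed. A match is a run of letters and not a measured site of binding.

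Atp5l, an accessory subunit of the membrane sector, had the largest difference between knockout and wildtype on the control diet among the 38 genes. It was 9.45, 9.52, 9.45 and 9.77 in knockout CR muscle and 9.32, 9.60, 9.85 and 9.62 in knockout control muscle. It was 9.41, 9.61, 9.52 and 9.52 in wildtype CR muscle and 9.27, 9.46 and 9.13 in wildtype control muscle. The control-diet groups overlapped through knockout control replicate 1 and wildtype control replicate 2. The difference on the control diet was 0.31 (SE 0.12, 95% interval 0.06 to 0.56, adjusted p = 0.651), a 1.24-fold level, and on CR it was 0.03 (SE 0.11). Its 6 probe sets gave 0.28 to 0.32 on the control diet. Without the 4 arrays the difference on the control diet was 0.42, and without knockout control replicate 3 it was 0.22. Several probe sets with the symbol of 1 gene were found for 9 of the 38, and whether some of them read near-identical copies elsewhere in the genome was not tested.

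Atp5o, the peripheral stalk subunit that joins the stalk to the catalytic head, averaged 10.59 ± 0.11 in knockout CR, 10.45 ± 0.15 in knockout control, 10.48 ± 0.03 in wildtype CR and 10.30 ± 0.08 in wildtype control muscle (SD, n = 4, 4, 4 and 3). Its CR difference averaged over genotypes was 0.16 (SE 0.06, adjusted p = 0.161). The other complex V genes differed in spread. The SD over 15 arrays was 0.0627 for Atp5b, 0.0714 for Atp5j, 0.106 for Atp5c1, 0.111 for Atp5a1 and 0.127 for Atp5e. Atp5b, the catalytic beta subunit, lay between 12.29 and 12.54 on the 15 arrays, and its largest difference in a comparison of 2 groups was 0.05. Atp5a1, the alpha subunit, averaged 11.70 ± 0.10 in knockout CR and 11.59 ± 0.04 in wildtype CR muscle (SD, n = 4 each), a difference of 0.11 (SE 0.08, adjusted p = 0.906). Atp5d, the delta subunit, had the smallest spread of the 38 genes, with an SD of 0.0599, and lay at 12.54 to 12.60 in knockout CR muscle, against 12.47 to 12.52 in wildtype CR muscle.

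Complex II held 4 genes. Sdha carries the flavin and the succinate site, Sdhb the iron-sulfur clusters, and Sdhc and Sdhd anchor the enzyme in the membrane. Sdhb was the most variable of them (SD 0.181), with 9.72, 9.82, 9.69 and 9.75 in knockout CR muscle, 9.58, 9.81, 10.23 and 9.79 in knockout control muscle, 9.49, 9.74, 9.66 and 9.46 in wildtype CR muscle and 9.81, 9.64 and 9.61 in wildtype control muscle. Knockout control replicate 3 was far above the others, and without it the CR difference in knockout muscle was 0.018 in place of -0.11 (SE 0.11). In wildtype muscle the CR difference was -0.10 (SE 0.12), and the knockout over wildtype difference was 0.16 (SE 0.11, adjusted p = 0.911) on CR and 0.17 (SE 0.12) on the control diet. Sdha was 10.94, 11.12, 10.98 and 10.93 in wildtype CR muscle, all above the 10.88, 10.89 and 10.78 of wildtype control muscle, a difference of 0.15 (SE 0.12, adjusted p = 0.594). In knockout muscle Sdha overlapped between diets, with 10.83 to 11.12 on CR and 10.59 to 11.22 on the control diet. Sdhc, the steadiest of the 4, averaged 10.40 ± 0.16 in knockout control and 10.28 ± 0.07 in wildtype control muscle (SD, n = 4 and 3).

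Complex III showed the highest median difference of the 4 complexes between knockout and wildtype on the control diet, from 0.07 for Uqcr11 to 0.18 for Cyc1. On knockout control replicate 3 the mean deviation was 0.31 for complex III, against 0.33, 0.19 and 0.20 for complexes II, IV and V. The order of the complexes rested on that array: without it the median difference of complex III was below that of complex IV. Cyc1 encodes cytochrome c1, the heme subunit that hands electrons to cytochrome c. It averaged 10.17 ± 0.11 in knockout CR, 10.26 ± 0.20 in knockout control, 10.14 ± 0.07 in wildtype CR and 10.08 ± 0.06 in wildtype control muscle (SD, n = 4, 4, 4 and 3). Uqcrb, which encodes a small subunit near the ubiquinone site, was 11.50, 11.47, 11.45 and 11.59 in knockout CR muscle and 11.41, 11.52, 11.70 and 11.61 in knockout control muscle. It was 11.31, 11.38, 11.47 and 11.37 in wildtype CR muscle and 11.45, 11.29 and 11.44 in wildtype control muscle. Both comparisons of genotype overlapped. The difference was 0.12 (SE 0.07, adjusted p = 0.87) on CR, 0.17 (SE 0.07, adjusted p = 0.669) on the control diet and 0.14 (SE 0.05, adjusted p = 0.645) averaged over diets, and its 3 probe sets gave 0.17 to 0.19 on the control diet. Uqcrfs1, the Rieske iron-sulfur protein, varied most (SD 0.175), from 7.73 on knockout control replicate 1 to 8.48 on knockout control replicate 3. Uqcrc2, a core protein, varied least (SD 0.104). Uqcr10, another small subunit, had the largest CR difference of the complex in wildtype muscle, at 0.11 (SE 0.08, adjusted p = 0.583), and stood at -0.06 in knockout muscle.

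**Figure D4:**
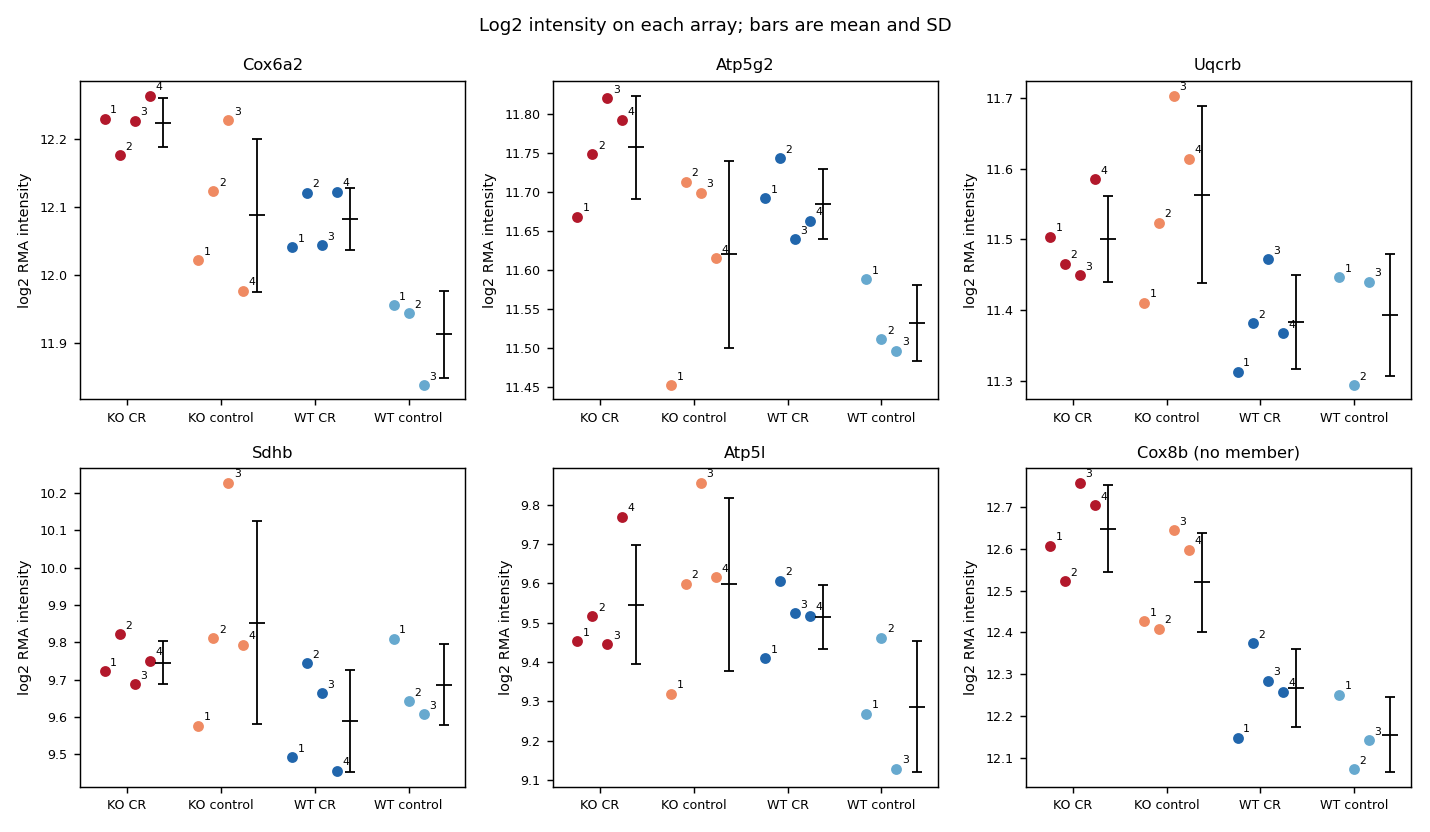
Log2 RMA intensity of 6 genes on each array, 1 point per mouse numbered by replicate, with group mean and SD as bars and separate vertical axes that do not start at 0. Knockout control replicate 3 is the highest array for Uqcrb, Sdhb and Atp5l, while the 8 knockout arrays lie above the 7 wildtype arrays for Cox8b, which is not among the 38 genes.

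Genes around the 4 complexes gave no adjusted call either. Lists were taken of assembly factors of complexes II (4 tested), III (6), IV (17) and V with its inhibitor (4), of further isoforms (6) and of cytochrome c (1), and 0 passed in any of the 7 comparisons. None of the 6 mitochondria-encoded subunits searched for was found, so they are not analysed here. Of the isoforms, Cox8b, the muscle isoform of subunit 8 of complex IV, had the smallest p in the genotype comparisons. It was 12.61, 12.52, 12.76 and 12.70 in knockout CR muscle and 12.43, 12.41, 12.64 and 12.60 in knockout control muscle. It was 12.15, 12.37, 12.28 and 12.26 in wildtype CR muscle and 12.25, 12.07 and 12.14 in wildtype control muscle. Every knockout array lay above every wildtype array, whatever the diet. Of all genes, 1.84 percent were higher in knockout without overlap on CR and 3.71 percent on the control diet. The share over both diets together was not computed. Cox8b is also a marker of brown adipocytes. Of the 6 genes of that list 2, Cox8b included, passed the filter on low values. Ucp1, the defining gene of brown adipocytes, lay at 3.86 to 4.84 on the 15 arrays. Cidea of the same list lay at 4.17 to 5.85, with the highest value on knockout CR replicate 4. Any part of brown adipocytes in the Cox8b difference was not tested.

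The Cox8b difference between knockout and wildtype was 0.38 (SE 0.08, adjusted p = 0.2) on CR, 0.36 (SE 0.08, adjusted p = 0.599) on the control diet and 0.37 (SE 0.06, unadjusted p = 1.13e-05, adjusted p = 0.136) averaged over diets. The last passed the threshold under 2 of 26 alternatives, at adjusted p = 0.0264 with a trended and robust prior and 0.0402 without wildtype control replicate 1, and the range over all 26 was 0.0264 to 0.486. Cox8b lies on chromosome 7 with 1 protein-coding gene between it and Sirt3 in the RefSeq order. Of the 38 genes 4 are on chromosome 7, with 122 such genes between Cox6a2 and Sirt3, 261 for Uqcrc2, 1262 for Cox6b1 and 1290 for Cox7a1. Any part of this position was not tested.

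Among the assembly factors, Cox18, which inserts a mitochondria-encoded subunit of complex IV into the membrane, differed by 0.46 (SE 0.11, adjusted p = 0.171) for CR in knockout muscle and by 0.51 (SE 0.11, adjusted p = 0.376) for knockout over wildtype on CR. Uqcc1, an assembly factor of complex III, stood at -0.39 in both of these comparisons (SE 0.12, adjusted p = 0.258 and 0.698). In wildtype muscle on CR, Uqcc2, also of complex III, stood at 0.24 (SE 0.07, adjusted p = 0.177) and Atpaf2, which helps to assemble the catalytic head of complex V, at 0.25 (SE 0.08, adjusted p = 0.193). Cox11, which delivers copper to complex IV, stood at 0.23 (SE 0.06, adjusted p = 0.599) for knockout over wildtype on the control diet. Cycs, the cytochrome c of somatic cells, stood at -0.11 (SE 0.06, adjusted p = 0.329) for CR averaged over genotypes. The Atp5pb probe set, the other listing of Atp5f1, differed by 0.11 (SE 0.09, adjusted p = 0.843) between knockout and wildtype on the control diet and by -0.01 (SE 0.08) on CR.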

How the data were processed

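RNA from the gastrocnemius of 15 mice was measured on Affymetrix arrays, 1 mouse per array. The deposited values are log2 intensities that the authors made with RMA, per the submitters' processing notes. RMA corrects background, equalises the arrays' distributions and summarises probes, so differences common to all genes are reduced. A broad shift remained on wildtype control replicate 3, where the median deviation of all genes tested was -0.10. The sources used here give neither its version nor scan dates or batches, so no batch could be tested. Array medians ran from 5.40 to 5.48, and the number of arrays limits the precision.

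Of 35556 probe sets, 21789 had 1 gene symbol in the platform annotation, 1621 had several and were left out, and 12146 were not listed. One probe set was kept per gene (highest mean), and genes averaging less than 5.32, the 40th percentile of listed probe sets, were removed. A mean for each group was fitted over the 15 arrays (lmFit and eBayes of limma 3.58.1, R 4.3.3), 7 contrasts were taken, and p-values were adjusted by Benjamini-Hochberg over 12056 genes, with a threshold of 0.05. The procedure was tested on simulated data. Figures were drawn with matplotlib 3.10.9 in Python 3.11.15.

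The 38 genes and the lists of related genes and markers were chosen with earlier results of these data known. Named genes were, per complex and comparison of 2 groups, the one with the smallest p, plus the isoform sets; per complex those with the largest and smallest SD; and per list the one with the smallest p. Genes named besides these, such as Cox5b, Cox8a, Atp5o and Atp5b, were chosen after their values were seen. The labels give each mouse as a separate biological replicate. Correlations between the deviations of same-numbered arrays of 2 groups ran from -0.636 to 0.503, without a common sign. The numbers were not taken to pair the mice.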

Additional observations from a re-analysis of the deposited data

Results flagged for a closer look

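In groups of 4 mice, 4 of the 38 genes had 1 mouse far from the other 3, a gap of more than 0.829 of the group's range (Dixon's 95% critical value for 4 samples). In knockout control muscle the mouse was replicate 3 in each case. Atp5d was 12.66 there, against 12.55 on each of the other 3 arrays. Atp5g1 was 12.72, against 12.49 to 12.51, and Atp5g3 was 11.27, against 10.81 to 10.88. In wildtype CR muscle Uqcrfs1 was 8.05 on replicate 2, against 7.88 to 7.90 on the others. The 3 groups of 4 mice were examined for each of the 38 genes and for the mean of each complex, 126 in all, of which chance marks about 1 in 20. The group of 3 mice was not examined.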

How the results depend on the processing

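With no filter or a stricter one (60th percentile), mean or single probe sets, quantile normalization, median centring, a trended and robust prior, array weights, only the groups compared, the replicate block, and without each array in turn, the germ cell arrays or all 4 arrays of another tissue, 0 of 38 genes passed in each of the 7 comparisons (186 refits). The median over the 38 genes moved by less than the spread between replicates each time. That spread was 0.09 log2 units, larger than most of the medians themselves, so a median could change sign and stay within it. The medians for CR and for the difference between CR effects did so. Over all alternatives it ran from 0.05 to 0.18 for knockout over wildtype on the control diet, 0.04 to 0.09 on CR, 0.06 to 0.12 averaged over diets, -0.07 to 0.05 for CR in knockout, -0.03 to 0.06 in wildtype, -0.05 to 0.04 averaged over genotypes, and -0.10 to 0.01 for the difference between CR effects. With quantile normalization 36 of 38 genes lay above 0 on the control diet. Of the named differences 1 changed sign (Sdhb for CR in knockout muscle, 0.018 without knockout control replicate 3, and from -0.20 to 0.018 over the fits that leave out 1 array), 2 passed the threshold (both Cox8b, given above), 59 refits of the 4 called fast fibre genes no longer passed, and 710 refits kept sign and side of the threshold.

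With the replicate block the median was 0.12 for knockout over wildtype on the control diet and 0.07 on CR, and it changed no call among the 38 genes. The numbers were not taken to pair the mice: 2 of 15 arrays correlated best with their own number, which does not exclude a pairing.

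With 3 or 4 mice per group, differences of about 0.1 log2 units lie within the error of most of these genes, and a miss of the threshold does not show equal levels. Knockout control replicate 3 and the 4 arrays with transcripts of another tissue moved the medians where stated. RNA levels say nothing of protein amount or acetylation.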
